A study of Rattus norvegicus with 12 samples.

Results

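The drug-metabolising cytochrome P450 genes of families 1, 2 and 3 were followed in rat liver. A probe set belonged to the group when its annotation gave exactly 1 symbol and that symbol named a gene of family 1, 2 or 3, which gave 34 of 31099 probe sets and 32 of 14218 genes, and 26 of these genes were among the 9459 genes tested. The livers came from Sprague-Dawley rats, an outbred laboratory strain, with 1 microarray per animal and 3 animals per group. QHD rats were fed a high-fat diet (HFD) for 4 weeks and then received Qushi Huayu Decoction, a herbal preparation, at 0.1 ml/kg by daily gavage for another 4 weeks while the diet went on. GC rats followed the same schedule with a mixture of geniposide and chlorogenic acid, 2 plant compounds, whose dose the labels do not give. HFD rats received the diet alone and normal rats received standard chow. The labels give neither age nor sex, and the titles give 4 weeks for every group, so the full time on diet in the HFD and normal groups is not stated. The HFD is a diet model of fatty liver, and QHD and GC rats also stayed on it, so both differ from normal rats in diet as well as in treatment. The array labelled normal diet 3 did not carry liver RNA by its markers and was left out, which left 2 normal livers. On that array the summed linear signal of 20 hepatocyte marker genes was 14800, against 511000 to 702000 on the other 11 arrays, and 26 of the 32 P450 genes were lower than on each of the other 11.

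Cytochromes P450 are heme enzymes of the endoplasmic reticulum that oxidise drugs, pollutants, steroids and fatty acids with electrons passed on by P450 oxidoreductase. Families 1 to 3 hold most of the enzymes that clear foreign compounds, and hepatocytes around the central vein carry most of them. Family 1 genes are induced through the aryl hydrocarbon receptor, many genes of subfamilies 2B, 2C and 3A through the constitutive androstane receptor and the pregnane X receptor, and in the rat many genes of subfamilies 2A, 2C and 3A also follow the sex-dependent rhythm of growth hormone.

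The 26 genes tested were 2 of 3 in family 1, 20 of 25 in family 2 and 4 of 4 in family 3. Of these, 14 had a mean above 14 on the log2 scale over the 11 livers, close to the highest value on these arrays of 15.65, so a change in them may be compressed by the scale. Cyp1b1, Cyp2a3, Cyp2b12, Cyp2b21, Cyp2g1 and Cyp2s1 had mean log2 signals at or below 6.66, the median of all probe sets, and were not tested. Probe sets of this family can bind transcripts of close relatives, so the values are to some degree uncertain as to source. The probe set of Cyp2c13 is marked on the array as shared between transcripts of different genes. Those of Cyp2c6v1 and Cyp2j3 are marked as shared between transcripts of the same gene. Another 3 probe sets, annotated to Cyp2a1 and Cyp2a2, to Cyp2d1 and Cyp2d5 and to Cyp2b1 and Cyp2b2, could not be given to 1 gene and were left out. In a whole-liver sample, fewer cells of a type and less RNA per cell cannot be told apart.

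**Figure D1:**
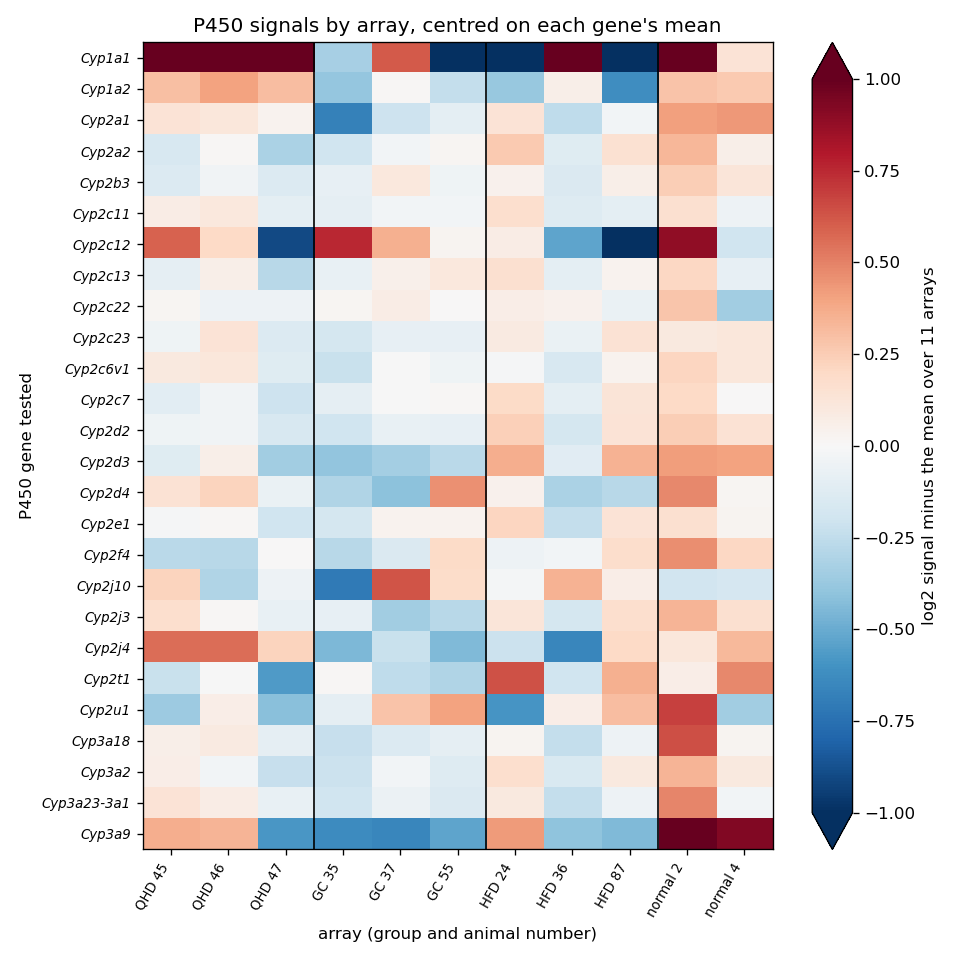
Colours show the log2 signal of 26 P450 genes (rows) on 11 arrays (columns, with group and animal number), each gene centred on its mean over these arrays, with the colour scale ending at -1 and 1. Cyp1a1 is at the upper end of the colour scale in all QHD columns and also in normal liver 2 and HFD liver 36, so colour does not rank these. Cyp1a2 is about as high in the normal as in the QHD columns, and Cyp3a9 and Cyp2a1 are highest in the normal columns.

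QHD livers had the highest mean signals of both tested family 1 genes and of Cyp2j4, although no P450 gene passed the test between QHD and HFD. In these 3 genes every QHD liver was above every HFD and every GC liver. Such a separation from HFD livers was found in 11.5% of the P450 genes tested (3 of 26) and in 9.51% of all genes, which is close. Cyp1a1, the classic enzyme of polycyclic aromatic hydrocarbon metabolism and the most inducible target of the aryl hydrocarbon receptor, had log2 signals of 10.26, 9.44 and 11.01 in QHD livers, 6.73, 7.68 and 5.36 in GC livers, 1.69, 8.13 and 1.02 in HFD livers and 9.22 and 7.20 in normal livers. HFD livers 24 and 87 stood far below all the others, and HFD liver 36 was above all GC livers, while all QHD livers were above all GC, HFD and normal livers. The difference of QHD over HFD was 6.63 ± 1.57 (log2, SE) with an adjusted p of 0.109, and after adding 32 to the linear signals, which holds low values together, it was 4.11 with an adjusted p of 0.0620. Both low HFD values lay far under the array medians of 6.62 to 6.87, where a signal of this kind has large error, so the size of this difference is poorly determined. Cyp1a1 passed the signal filter of 6.66 with a mean of 7.07 over the 11 livers, and without the QHD values its mean would fall below it. Its group means were 10.24 in QHD, 6.59 in GC, 3.61 in HFD and 8.21 in normal livers. Cyp1a1 was thus tested only through the group where it is high, so its p-values and counts in QHD comparisons are not independent support.

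Cyp1a2, which metabolises caffeine and arylamines and is made in liver without induction, had signals of 14.62, 14.73 and 14.64 in QHD livers, 13.93, 14.34 and 14.09 in GC livers, 13.94, 14.38 and 13.71 in HFD livers and 14.61 and 14.58 in normal livers. QHD and normal livers lay within a narrow band above all GC and HFD livers. The QHD over HFD difference was 0.65 ± 0.15 (adjusted p = 0.0960), a 1.57-fold higher signal, the QHD over GC difference was 0.54 ± 0.15 (adjusted p = 0.234), and the HFD over normal difference was -0.59 ± 0.17 (adjusted p = 0.136). In the rat genome Cyp1a1 and Cyp1a2 are neighbours with 0 other genes between them.

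Cyp2j4, a relative of the enzymes that turn arachidonic acid into epoxides, had signals of 12.47, 12.46 and 12.13 in QHD livers, 11.46, 11.68 and 11.46 in GC livers, 11.69, 11.25 and 12.11 in HFD livers and 12.02 and 12.23 in normal livers. All QHD livers were above all GC and HFD livers, the closest pair being QHD liver 47 and HFD liver 87. Differences were 0.67 ± 0.19 for QHD over HFD (adjusted p = 0.141) and 0.82 ± 0.19 for QHD over GC (adjusted p = 0.135).

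**Figure D2:**
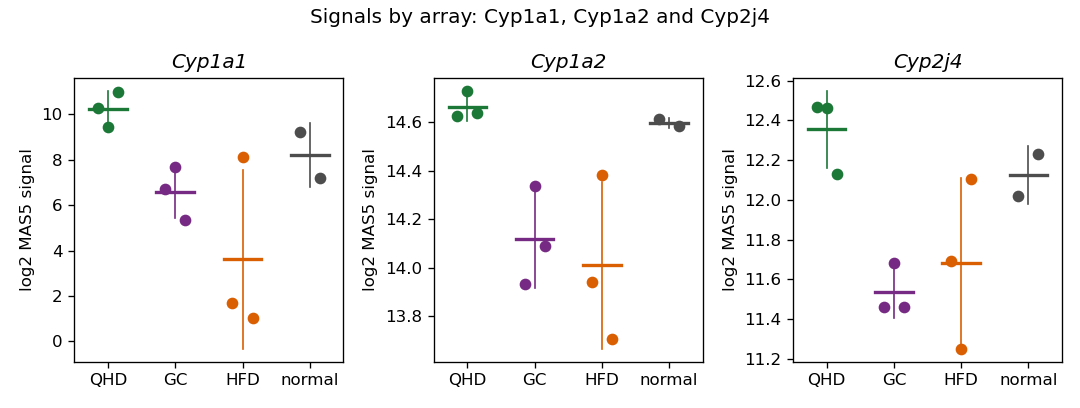
Points are log2 signals of Cyp1a1, Cyp1a2 and Cyp2j4 in single livers, by group (QHD, GC, HFD, normal), each panel with its own axis; horizontal lines are means and vertical lines are SD (n = 3, and 2 for normal). QHD livers lie above every GC and HFD liver in all 3 panels, and HFD liver 36 is the high point of the HFD group for Cyp1a1 and Cyp1a2.

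Whether Cyp1a1 and Cyp1a2 passed in QHD against HFD livers turned on HFD liver 36. It was the highest HFD liver for Cyp1a1, Cyp1a2 and Cyp2j10 and the lowest for 18 of the 26 genes, and it was also the lowest HFD liver for 20 of 20 hepatocyte markers, against 35.3% of all genes tested. Leaving out the highest HFD liver can only widen the QHD over HFD difference of these genes, so the fit without it is not independent support: there Cyp1a2 passed with a difference of 0.84 (adjusted p = 0.0110), Cyp1a1 passed (adjusted p = 0.00223) with a size that the low HFD signals leave undetermined, and Cyp2j4 did not pass (0.46, adjusted p = 0.172). With arrays weighted by their agreement with their group, Cyp1a2 (0.85, adjusted p = 0.00913) and Cyp1a1 (adjusted p = 0.0166) also passed, but these weights raised the calls among all genes to 434, against 53 with equal weights.

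Between QHD and HFD livers, 0 of 26 P450 genes passed the limma test with Benjamini-Hochberg adjustment at 0.05, beside 0.56% of all genes tested. At an unadjusted p under 0.05, Cyp1a1, Cyp1a2 and Cyp2j4 were higher, beside 6.79% of all genes, and Cyp2d3 and Cyp2t1 were lower, beside 5.95% of all genes. The 3 higher genes were also the ones whose QHD and HFD values did not overlap with QHD above, beside 9.51% of all genes. The mean was lower in QHD livers for 15 of 26 genes, beside 46.8% of all genes, with a median difference of -0.06 for the P450 genes and 0.02 for all genes tested.

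The clearest lower values were in GC livers set against normal livers, where 4 of 26 P450 genes fell, beside 3.41% of all genes tested that fell. They were Cyp3a9, Cyp2d3, Cyp2a1 and Cyp2j3, and none rose, beside 6.2% of all genes that rose. Their fall was relative to 2 normal livers, and the HFD and QHD values of each gene are given with them.

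Cyp3a9, a steroid and drug hydroxylase that in rats is more abundant in female liver, had signals of 12.34, 12.32 and 11.40 in QHD livers, 11.35, 11.32 and 11.45 in GC livers, 12.40, 11.57 and 11.53 in HFD livers and 13.16 and 12.90 in normal livers. Both normal livers were above all 9 livers on the high-fat diet, and the GC livers were the most alike. GC livers were 3.15-fold lower than normal livers (log2 difference -1.66 ± 0.31, adjusted p = 0.0121). The HFD difference from normal was -1.20 ± 0.31 (adjusted p = 0.104) and the QHD difference -1.01 ± 0.31 (adjusted p = 0.0752).

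Cyp2d3, a member of the subfamily that metabolises many basic drugs, had signals of 13.97, 14.15 and 13.74 in QHD livers, 13.70, 13.75 and 13.82 in GC livers, 14.45, 13.97 and 14.44 in HFD livers and 14.51 and 14.49 in normal livers. GC livers were below every HFD and normal liver. They were 1.68-fold lower than normal livers (-0.75 ± 0.15, adjusted p = 0.0138), and their difference from HFD livers was -0.53 ± 0.14 (adjusted p = 0.315). The QHD difference from normal, -0.55 ± 0.15, lay just outside the threshold (adjusted p = 0.0526).

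Cyp2a1, a testosterone hydroxylase of rat liver, had signals of 12.62, 12.60 and 12.52 in QHD livers, 11.81, 12.28 and 12.39 in GC livers, 12.62, 12.23 and 12.46 in HFD livers and 12.90 and 12.92 in normal livers. Normal livers were highest, and all GC livers were below all QHD livers. The fall in GC against normal livers was 1.68-fold (-0.75 ± 0.16, adjusted p = 0.0182), and the QHD over GC difference was 0.42 ± 0.15 (adjusted p = 0.350).

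Cyp2j3, an arachidonic acid epoxygenase, had signals of 12.01, 11.86 and 11.77 in QHD livers, 11.76, 11.49 and 11.57 in GC livers, 11.97, 11.67 and 12.01 in HFD livers and 12.18 and 12.00 in normal livers. GC livers were below both normal livers and overlapped the HFD livers. The GC against normal difference was -0.48 ± 0.13 (adjusted p = 0.0450), and when each probe set was fitted on its own, the other probe set of this gene gave -0.88 ± 0.24 (adjusted p = 0.0479).

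**Figure D3:**
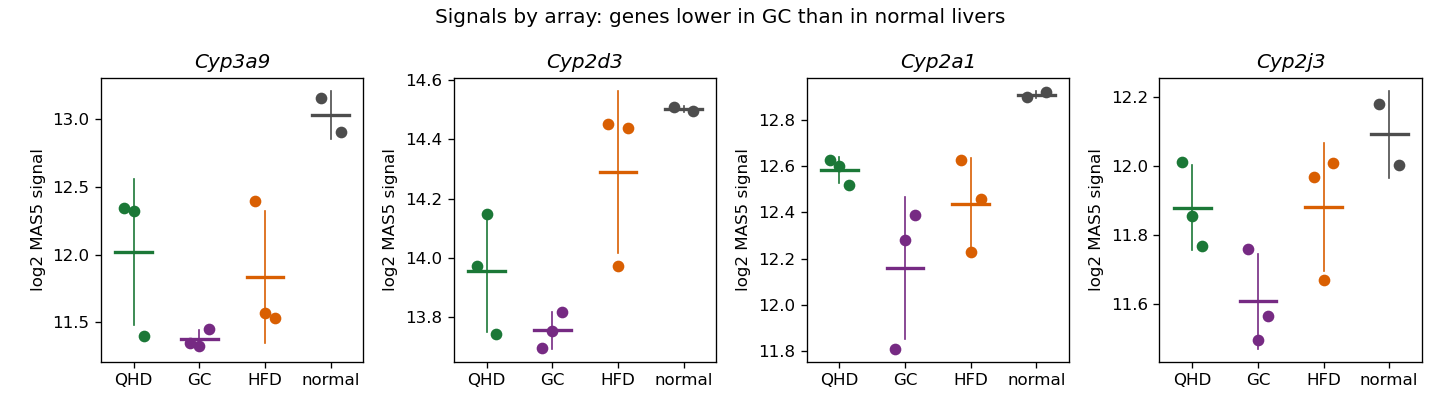
Points are log2 signals of Cyp3a9, Cyp2d3, Cyp2a1 and Cyp2j3 in single livers by group, each panel with its own axis; horizontal lines are means and vertical lines are SD (n = 3, and 2 for normal). In each panel the 3 GC livers lie below both normal livers, which is what passed the test.

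The 4 calls rested on the normal livers. Without normal liver 2, 0 of 26 genes passed, and the adjusted p of Cyp3a9 was 0.0814. Without normal liver 4, Cyp2d3, Cyp2a1 and Cyp2j3 no longer passed. Without HFD liver 36, which is in neither group but enters the shared estimate of spread and the signal filter, 7 genes passed. Cyp2j3 passed in 2 of the 11 fits that left out 1 liver, against 10 of 11 for Cyp3a9 and 9 of 11 for both Cyp2d3 and Cyp2a1, and it also did not pass after quantile normalization, with no filter on low signals, or without the trended and robust options.

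The lower side of this comparison was wider than the 4 calls. At an unadjusted p under 0.05, 13 of 26 genes were lower in GC than in normal livers, beside 9.6% of all genes, and in 16 of 26 all GC livers were below both normal livers, beside 17.3% of all genes. The mean difference was below 0 in 22 of 26, beside 43.3% of all genes, with a median of -0.32 for the P450 genes and 0.05 for all genes tested. In HFD and QHD livers against normal livers, given below, fewer genes had a lower mean after quantile normalization, so that count depends on array scaling. The same count for GC against normal livers after quantile normalization is not given here. Markers of the hepatocyte itself also stood lower: 20 of 20 tested hepatocyte markers had a mean difference below 0, with a median of -0.13 and none passing the test, and their summed linear signal was 564000 to 614000 in GC livers, against 618000 to 697000 in normal livers. This was not particular to GC livers. Against normal, 20 of 20 were also below 0 in QHD livers (median -0.23, summed signal 511000 to 585000). In HFD livers 18 of 20 were (median -0.05, summed signal 565000 to 702000). The summed signal of 14 pericentral markers was 50000 to 60300 in GC livers, against 66700 to 69200 in normal livers, and Lect2 was the 1 of 12 tested that fell. The summed signal of 16 periportal markers was 177000 to 204000 in GC livers, against 225000 to 232000 in normal livers, and 3 of 15 tested fell (Gls2, Uroc1 and Hal). Of 14 tested macrophage and Kupffer cell markers, 6 rose in GC livers (Aif1, Lyz2, C1qc, Cd68, Itgam and Fcgr1a), beside 6.2% of all genes, with a list median of 0.84 and summed signals of 71400 to 74900 in GC livers, against 42700 to 49500 in normal livers. No gene of these lists was at 0, and their part in the P450 values was not tested.

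Of the 4 family 3 genes, 1 passed the test in GC against normal livers. In all 4, every GC liver was below both normal livers, beside 17.3% of all genes, as also in 2 of 2 subfamily 2A genes and 2 of 3 subfamily 2D genes. Lower means were not particular to GC livers: all 4 were also below normal in HFD (median -0.36) and QHD livers (median -0.30). In 2 of the 4 all HFD livers were below both normal livers, beside 10.8% of all genes. In 2 of the 4 all QHD livers were, beside 17.1% of all genes. Besides Cyp3a9, Cyp3a18 had 14.25, 14.35 and 14.39 in GC livers, against 15.13 and 14.51 in normal livers. Cyp3a2, which in rats is more abundant in male liver, had 14.30, 14.48 and 14.38 in GC livers, against 14.85 and 14.61 in normal livers. Cyp3a23-3a1, a form strongly induced through the pregnane X receptor in rats, had 14.70, 14.84 and 14.75 in GC livers, against 15.39 and 14.87 in normal livers. The GC differences from normal were -0.49 ± 0.16 for Cyp3a18 (adjusted p = 0.0731), -0.34 ± 0.13 for Cyp3a2 (adjusted p = 0.113) and -0.36 ± 0.15 for Cyp3a23-3a1 (adjusted p = 0.141), so Cyp3a9 alone passed the test. The sequences of the 250 bases before the start of each gene, from RefSeq on GRCr8, show how far the 4 differ just upstream, with the nuclear receptor hexamer AGTTCA, found on either strand, in capitals (TGAACT where it lies on the opposite strand).
Cyp3a9, chr12:21960161-21960410, strand -: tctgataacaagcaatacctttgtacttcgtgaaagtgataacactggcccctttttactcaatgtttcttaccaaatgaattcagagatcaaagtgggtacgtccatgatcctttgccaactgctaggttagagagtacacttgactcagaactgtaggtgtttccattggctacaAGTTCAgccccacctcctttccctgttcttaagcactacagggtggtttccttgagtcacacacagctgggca
Cyp3a18, chr12:13994062-13994311, strand +: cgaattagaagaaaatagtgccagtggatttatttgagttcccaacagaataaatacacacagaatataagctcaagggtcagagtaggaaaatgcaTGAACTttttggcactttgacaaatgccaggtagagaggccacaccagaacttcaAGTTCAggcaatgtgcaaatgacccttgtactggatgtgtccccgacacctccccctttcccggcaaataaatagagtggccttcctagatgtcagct
Cyp3a2, chr12:14343858-14344107, strand -: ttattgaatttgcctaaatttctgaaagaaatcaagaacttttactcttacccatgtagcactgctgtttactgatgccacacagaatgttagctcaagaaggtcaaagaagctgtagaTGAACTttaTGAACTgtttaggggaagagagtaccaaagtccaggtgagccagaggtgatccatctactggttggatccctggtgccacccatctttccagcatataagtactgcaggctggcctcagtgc
Cyp3a23-3a1, chr12:14398804-14399053, strand -: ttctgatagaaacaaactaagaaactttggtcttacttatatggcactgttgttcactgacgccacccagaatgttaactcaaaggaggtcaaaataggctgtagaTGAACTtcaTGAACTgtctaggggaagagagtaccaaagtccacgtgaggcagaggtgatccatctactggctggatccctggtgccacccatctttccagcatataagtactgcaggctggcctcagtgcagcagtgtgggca

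Cyp3a2 and Cyp3a23-3a1 each carry the hexamer as a direct repeat, AGTTCA followed by AGTTCA with any 3 bases between them, at positions -131 to -117 from the start in Cyp3a2 and -144 to -130 in Cyp3a23-3a1, on the strand opposite to the gene; each repeat is made of 2 of the hexamers counted below. These were the only 2 of 33469 RefSeq windows of this length with that exact repeat on either strand (0.00598%). Only this exact string was searched, so variant forms of the repeat in other windows were not counted. The hexamer alone stood in 12.2% of all windows and in 9 of the 29 P450 windows present, with 1 copy in Cyp3a9 and 2 copies, not in this repeat, in Cyp3a18. The repeat was not in the window of Cyp3a9, the member of the subfamily that passed the test, which says nothing about factors bound there or farther away. The core of the xenobiotic response element, GCGTG on either strand, stood in 25.9% of all windows and in 3 P450 windows (Cyp1b1, Cyp2t1 and Cyp2u1), and Cyp1a2 had 0 copies in its window. Windows of Cyp1a1, Cyp2a2 and Cyp2c6v1 were not used here.

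Most P450 genes had a lower mean in HFD than in normal livers, but none passed the test. The mean was lower in HFD livers for 24 of 26 genes, beside 45% of all genes, with a median difference of -0.21 for the P450 genes and 0.03 for all genes. None of 26 passed, beside 0.529% of all genes, 5 were lower at an unadjusted p under 0.05, beside 4.8% of all genes (Cyp3a9, Cyp1a2, Cyp2a1, Cyp3a18 and Cyp1a1), and in 8 all HFD livers were below both normal livers, beside 10.8% of all genes. After quantile normalization the mean was lower in 19 of 26. Cyp1a1 did not pass (adjusted p = 0.257), with HFD liver 36 inside the normal range and the size of its difference undetermined, since the other HFD signals were far under the array medians.

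QHD livers against normal livers likewise gave 0 of 26 calls, beside 7.46% of all genes tested. Lower at an unadjusted p under 0.05 were 7 genes, beside 9.17% of all genes, and in 12 genes all QHD livers were below both normal livers, beside 17.1% of all genes. The mean was lower in 21 of 26, beside 43%, and in 15 of 26 after quantile normalization. Cyp2f4, a relative of the naphthalene-oxidising enzymes of lung, had 10.68, 10.67 and 10.95 in QHD livers, 10.68, 10.81 and 11.14 in GC livers, 10.90, 10.92 and 11.13 in HFD livers and 11.42 and 11.16 in normal livers. Normal livers were the highest, and the QHD difference from normal was -0.52 ± 0.16 (adjusted p = 0.0677). Cyp1a1 and Cyp1a2 were the only P450 genes tested with all QHD livers above both normal livers, beside 26.5% of all genes. For Cyp1a2 the margin was narrow, from a highest normal signal of 14.61 to a lowest QHD signal of 14.62. Its QHD difference from normal was 0.06 (adjusted p = 0.857). Cyp1a1 was tested only through its QHD signals, so its place in this count is not independent support.

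GC livers differed from HFD livers in none of 26 genes, beside 0.0951% of all genes. Lower at an unadjusted p under 0.05 were Cyp2d3 and Cyp2j3, beside 4.56% of all genes, and Cyp2c23, Cyp2d3 and Cyp3a9 had all GC livers below all HFD livers, beside 5.85% of all genes. Cyp2c23, an arachidonic acid epoxygenase, had 14.37, 14.47 and 14.46 in GC livers, against 14.64, 14.48 and 14.69 in HFD livers, a difference of -0.17 with a 95% interval of -0.37 to 0.03. The mean was lower in GC than in HFD livers in 19 of 26 genes, beside 44.3% of all genes, and in 16 after quantile normalization.

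QHD and GC livers, the 2 treated groups, were compared directly although the labels give a dose for QHD alone, so their doses cannot be matched. None of 26 genes passed, beside 0.275% of all genes. Higher in QHD livers at an unadjusted p under 0.05 were 6 genes, beside 5.31% of all genes (Cyp1a1, Cyp1a2, Cyp2a1, Cyp2j3, Cyp2j4 and Cyp3a9), and 6 genes had all QHD livers above all GC livers, beside 9.17% of all genes, with Cyp3a18 in place of Cyp3a9. When only QHD and GC livers were fitted, Cyp2j4 passed the test. The mean was lower in QHD than in GC livers in 11 of 26, beside 51.9% of all genes, and in 8 after quantile normalization.

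**Figure D4:**
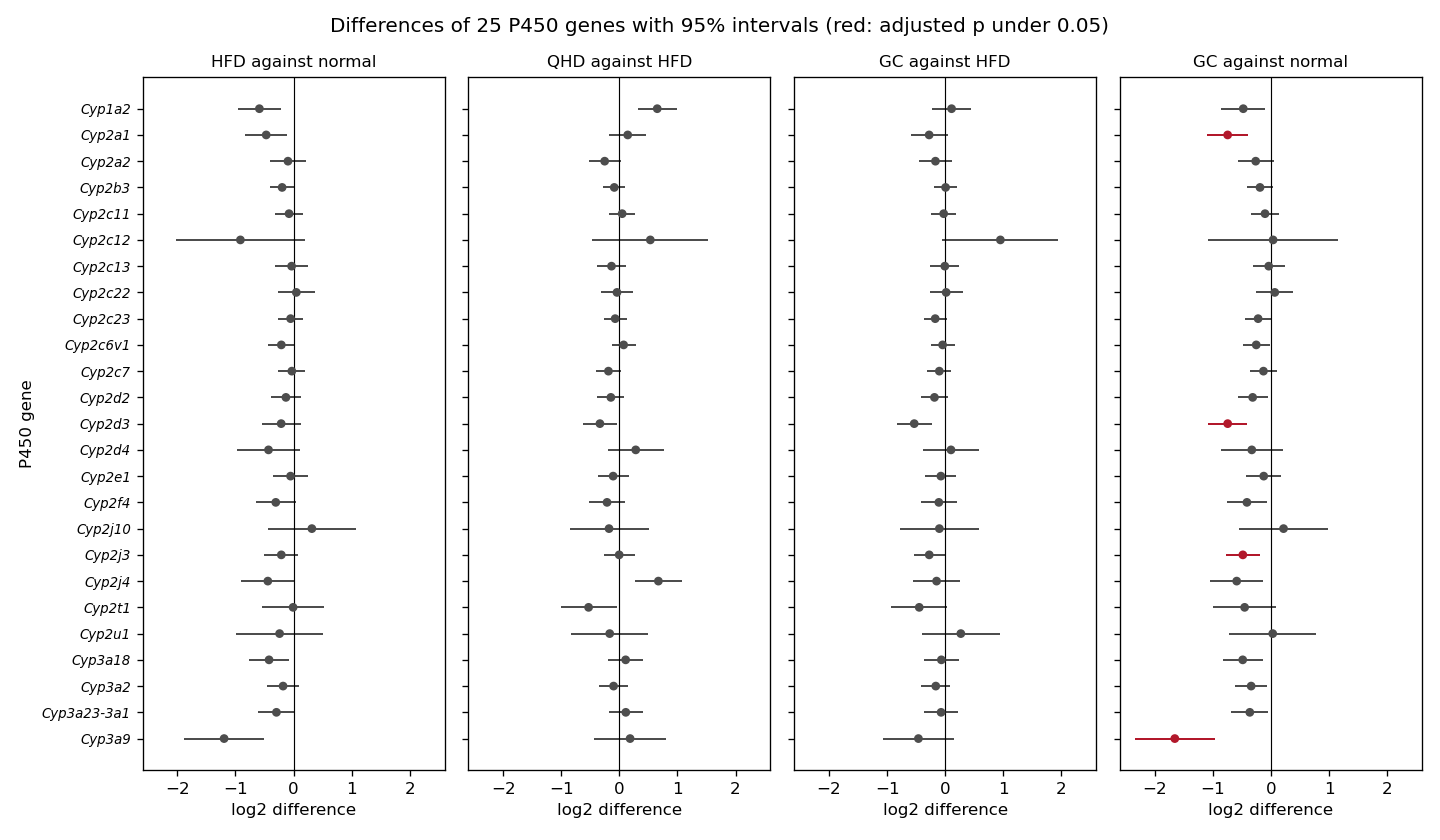
Points are log2 differences of 25 P450 genes (all tested but Cyp1a1, whose differences of up to 6.63 exceed the axis) with 95% intervals from limma, for HFD against normal, QHD against HFD, GC against HFD and GC against normal livers. Red points passed the test at an adjusted p under 0.05; these are Cyp2a1, Cyp2d3, Cyp2j3 and Cyp3a9, all in GC against normal livers.

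Among the other abundant enzymes, none passed the test in any comparison. Cyp2c11, the main male-specific P450 of rat liver, had 14.73, 14.76 and 14.56 in QHD livers, 14.57, 14.63 and 14.63 in GC livers, 14.82, 14.53 and 14.56 in HFD livers and 14.82 and 14.61 in normal livers. The groups overlapped, and its HFD against normal difference was -0.08 with a 95% interval of -0.32 to 0.17. Cyp2e1, which oxidises ethanol, acetaminophen and fatty acids and is often studied in fatty liver, had 14.95, 14.97 and 14.76 in QHD livers, 14.79, 15.00 and 15.00 in GC livers, 15.18, 14.73 and 15.10 in HFD livers and 15.12 and 14.99 in normal livers. Its HFD against normal difference was -0.05, with a 95% interval of -0.35 to 0.25 that leaves room for a change of this size either way, and its signal is among those near the top of the scale.

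Cyp2a2, Cyp2c13 and Cyp2c7, further steroid hydroxylases with sex-dependent levels in rats, had intervals that reached 0 in every comparison, apart from Cyp2a2 in QHD against normal livers. Cyp2a2 had 13.76, 13.93 and 13.60 in QHD livers, 13.72, 13.89 and 13.93 in GC livers, 14.17, 13.79 and 14.07 in HFD livers and 14.25 and 13.97 in normal livers, and its QHD difference from normal was -0.35 (95% interval -0.66 to -0.04) without adjustment over genes. Over the 11 livers Cyp2c13 ranged between 14.44 and 14.93, and Cyp2c7 between 14.63 and 15.04. Cyp2c12, the female-specific counterpart of Cyp2c11, varied most among the abundant subfamily 2C genes, with 13.57, 13.18 and 12.07 in QHD livers, 13.73, 13.34 and 13.01 in GC livers, 13.05, 12.45 and 11.72 in HFD livers and 13.87 and 12.78 in normal livers. Its groups overlapped, and its GC over HFD difference was 0.95 ± 0.45 (adjusted p = 0.587). Male-specific Cyp2c11 and female-specific Cyp2c12 both had signals far above the array medians in all 11 livers. The labels do not give sex, and binding of close relatives by these probe sets was not tested.

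Within groups the P450 genes tended to share a lowest liver. QHD liver 47 was the lowest QHD liver for 22 of 26 genes, against 31.3% of all genes tested, and GC liver 35 was the lowest GC liver for 19 of 26, against 39.2% of all genes. In the normal group, liver 4 was below liver 2 for 21 of 26, against 49.4% of all genes. The same livers were lowest for hepatocyte markers: QHD liver 47 for 18 of 20, GC liver 35 for 15 of 20 and normal liver 4 for 18 of 20. Cyp1a1 had its highest QHD signal in liver 47 and its highest HFD signal in liver 36, but in the normal group it too was lower in liver 4. The part of hepatocyte RNA content in the P450 values was not tested, and genes on 1 array share its scaling.

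The genes that serve P450 enzymes changed at a few points, mostly against normal livers. Por, the oxidoreductase that passes electrons to every microsomal P450, had 12.64, 11.75 and 12.19 in QHD livers, 11.59, 11.18 and 10.48 in GC livers, 12.09, 10.04 and 11.09 in HFD livers and 12.08 and 11.09 in normal livers. All QHD livers were above all GC livers, with a difference of 1.11 ± 0.50 (adjusted p = 0.497), and its QHD over HFD difference was 1.12 ± 0.50 (adjusted p = 0.382). Of the 7 tested genes listed as partners of P450 enzymes, Por among them, only Pgrmc2, a membrane heme-binding protein, passed in any comparison. Pgrmc2 fell by 0.65 in QHD against HFD livers (adjusted p = 0.0222). Against normal livers it fell by 0.89 in QHD livers (adjusted p = 0.00369) and by 0.72 in GC livers (adjusted p = 0.00841).

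Alas1, the rate-limiting enzyme of hepatic heme synthesis, had 13.12, 13.11 and 13.56 in QHD livers, 12.76, 13.31 and 12.64 in GC livers, 12.84, 12.11 and 12.50 in HFD livers and 14.40 and 13.87 in normal livers. All 9 livers on the high-fat diet were below both normal livers, and all QHD livers were above all HFD livers. Alas1 fell in HFD livers (-1.65 ± 0.26, adjusted p = 0.0246) and in GC livers (-1.23 ± 0.26, adjusted p = 0.0181) against normal livers, and its QHD over HFD difference was 0.78 ± 0.23 (adjusted p = 0.190). Of the 13 tested genes of heme supply and breakdown, Blvra, which reduces biliverdin, rose against normal in GC livers by 0.90 (adjusted p = 0.0138) and in QHD livers by 0.75 (adjusted p = 0.0362).

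**Figure D5:**
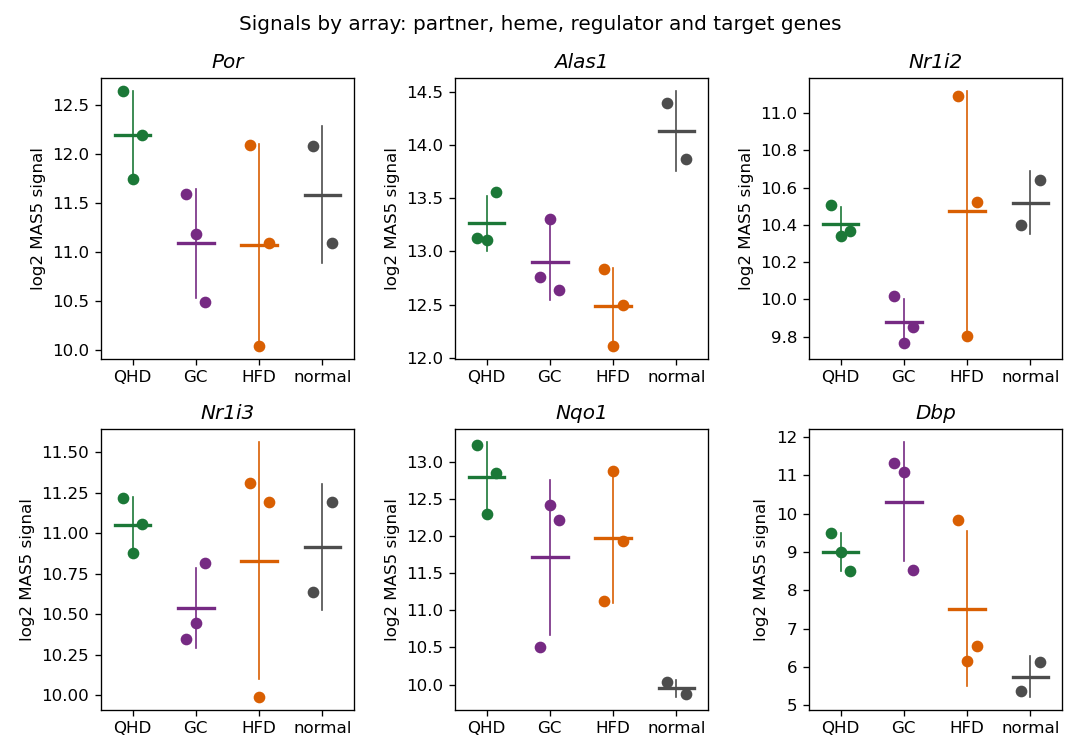
Points are log2 signals of Por, Alas1, Nr1i2, Nr1i3, Nqo1 and Dbp in single livers by group, each panel with its own axis; horizontal lines are means and vertical lines are SD (n = 3, and 2 for normal). Alas1 is highest in the 2 normal livers, while Nqo1 and Dbp are lowest there.

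Of 28 tested transcription regulators of P450 genes, 0 passed between HFD and normal, QHD and HFD, GC and HFD or QHD and GC livers. Nr1i2, the pregnane X receptor, had 10.51, 10.34 and 10.37 in QHD livers, 10.02, 9.77 and 9.85 in GC livers, 11.09, 9.81 and 10.52 in HFD livers and 10.40 and 10.64 in normal livers; all GC livers were below all QHD and normal livers, with a GC difference from normal of -0.64 ± 0.28 (adjusted p = 0.178). Nr1i3, the constitutive androstane receptor, and Hnf4a, a master regulator of hepatocyte genes, did not pass in any comparison, and Ahr was below the signal filter. Against normal livers Onecut1, a hepatocyte factor, rose in QHD livers by 2.12 (adjusted p = 0.0341). In GC livers Dbp, a clock-controlled activator of P450 genes, rose (adjusted p = 0.0284), with 11.33, 11.10 and 8.53 in GC livers, against 5.37 and 6.12 in normal livers. Both normal signals were under the array medians, so the size of that rise is poorly determined. Dbp had 9.51, 9.01 and 8.50 in QHD livers, with a QHD difference from normal of 3.26 (adjusted p = 0.0935). In HFD livers it had 9.84, 6.15 and 6.55. Also in GC against normal livers, Nfe2l2, the oxidative stress factor NRF2, rose by 0.93 (adjusted p = 0.0372). Bcl6, a repressor known in mice for sex-dependent liver expression, fell by 2.41 there (adjusted p = 0.0355). The QHD difference of Bcl6 from normal was -2.25 (adjusted p = 0.0517). Dbp is strongly rhythmic over the day, and the hour of tissue collection is not in the labels.

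Of 14 tested targets of the constitutive androstane and pregnane X receptors outside the P450 genes, 3 rose in QHD against HFD livers. They were Akr7a3, Ugt2b1 and Gsta3, beside 0.56% of all genes called in either direction. The list median was 0.95, beside 0.02 for all genes tested. Ugt2b1, a glucuronidating enzyme, had 14.30, 13.93 and 14.21 in QHD livers, 12.92, 13.24 and 13.00 in GC livers, 12.58, 12.74 and 12.98 in HFD livers and 14.02 and 13.51 in normal livers, so QHD and normal livers lay above all GC and HFD livers. It rose in QHD against HFD livers (1.38 ± 0.16, adjusted p = 0.00347) and against GC livers (1.09 ± 0.16, adjusted p = 0.0190), and it fell in HFD against normal livers (adjusted p = 0.0315). In HFD against normal livers 14 of 14 of these targets had a mean difference below 0, with a median of -0.54, and Alas1 and Ugt2b1 passed.

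Of the 5 tested targets of the aryl hydrocarbon receptor outside the P450 genes, 0 passed in QHD against HFD livers, where the list median was -0.02. Nqo1, a quinone reductase also driven by NRF2, had 13.23, 12.30 and 12.86 in QHD livers, against 11.12, 12.88 and 11.94 in HFD livers and 10.03 and 9.87 in normal livers, and its QHD rise against normal was 2.85 ± 0.60 (adjusted p = 0.0246). Tiparp, another target of the receptor, had 9.71, 9.69 and 9.76 in QHD livers, against 9.67, 9.84 and 9.67 in HFD livers, which overlapped. Of 14 tested NRF2 and glutathione genes, 6 rose in QHD against HFD livers (Akr7a3, Gsr, Gclm, Gsta3, Gclc and Gstp1), with a list median of 0.90. In that comparison 0.56% of all genes were called in either direction. Some genes stand on more than 1 of these lists. Growth hormone axis and sex-dependent liver genes numbered 18 tested. Of these, Prlr, Igf1, Ghr and Bcl6 fell in GC against normal livers, beside 3.41% of all genes that fell. In QHD against normal livers Prlr, Igf1, Ghr and Igfbp3 fell, beside 7.46% of all genes called there in either direction, a wider share than falls alone. Ghr, the growth hormone receptor, fell by 1.14 in QHD livers (adjusted p = 0.00795) and by 0.74 in GC livers (adjusted p = 0.0296).

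In the authors' deposited table, whose test is not named in the sources used here, 0 of 34 P450 probe sets had an unadjusted p under 0.05 in each of its 5 comparisons, beside 2.25% to 5.33% of all probe sets. The authors' deposited table gave a p of 0.0947 for Cyp1a1 and 0.0773 for Cyp1a2 in QHD against HFD livers. Its comparisons with normal include the array left out here.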

How the data were processed

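Log2 signals were deposited by the authors for 12 arrays, and the submitters' processing notes name MAS5 and Affymetrix Expression Console, without versions. MAS5 gives 1 background-corrected signal per probe set and gives large error to low signals. The authors' deposited table also holds p-values and fold ratios per comparison; a further deposited table held identical signals. Computed here: probe sets were named from GEO's platform annotation (20832 with 1 symbol, 436 with several, 9831 with none), the probe set with the highest mean stood for a gene, and genes with a mean log2 signal above 6.66 were tested. limma 3.58.1 (R 4.3.3) fitted 1 mean per group to 11 arrays, with trended and robust eBayes on 7 residual degrees of freedom and Benjamini-Hochberg adjustment over 9459 genes at 0.05. Linear marker sums are of 2 to the power of the log2 signal. The small number of arrays limits the precision; replicates are separate animals. Every tested P450 gene could be named; values per array were given for genes called, the 3 with the smallest p in a comparison and a fixed panel, and listed genes outside the family where called. The members and the lists were chosen with earlier results of these data known. Figures used matplotlib 3.10.9. Alternatives were other normalization, filters, an added 32, probe sets, sample sets, weights and moderation, and leaving out each array. The fit was tested on simulated data.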

Additional observations from a re-analysis of the deposited data

Results flagged for a closer look

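The array labelled normal diet 3, left out of every comparison, showed 3 P450 signals above every one of the 11 liver arrays. Cyp1b1, a family 1 enzyme made mainly outside hepatocytes, had a log2 signal of 10.6 there, against 6.06 to 7.27 in the livers. The second probe set of Cyp2d4, a form known from rat brain, had 9.18, against 7.65 to 8.67 in the livers, while the probe set used for this gene went the other way, with 9.41, against 9.48 to 10.36 in the livers. Cyp2u1, a fatty acid hydroxylase, had 8.50, against 7.02 to 8.30 in the livers. On the same array the 14 most abundant liver P450 genes had signals of 4.17 to 7.30, and the summed signal of adipocyte markers was 126000, against 23900 to 41700 in the livers.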

How the results depend on the processing

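With all 12 arrays, the non-liver array included, 0 P450 genes were called in GC against normal livers in place of 4. The genes with a lower mean were 4 of 27 in HFD, 2 of 27 in QHD and 4 of 27 in GC against normal livers. In this setting 10 log2 differences from normal turned positive. They were Cyp3a9 2.05, Cyp1a2 2.64 and Cyp2a1 2.37 in HFD livers, and Cyp2d3 2.58, Cyp2f4 0.91 and Cyp3a9 2.24 in QHD livers. In GC livers they were Cyp3a9 1.59, Cyp2d3 2.38, Cyp2a1 2.09 and Cyp2j3 1.05. The signal filter and the choice of probe sets were redone with that array added. With array weights the calls were 2 in HFD against normal, 2 in QHD against HFD, 3 in GC against HFD, 1 in QHD against GC and 1 in QHD against normal livers, each in place of 0; all genes called were then 659 in place of 9 in GC against HFD, and the cause was not tested. Fitting only the groups compared gave 1 call in QHD against GC and 1 in QHD against normal livers. Leaving out each array gave 0 to 7 calls in GC against normal livers, 0 to 2 in HFD against normal, QHD against HFD, GC against HFD and QHD against normal livers, and 0 to 1 in QHD against GC livers. The other settings for GC against normal livers gave 3 to 5 calls. Of the results for single genes, 333 kept direction and side of the threshold, 19 came to pass it and 17 no longer passed it. The counts of genes with a lower mean were added after seeing the data. No paired analysis was possible because the animal numbers are not shared between groups. Signals near the top of the scale limit what a P450 difference can show.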
